A study of Mus musculus with 4 samples.

Results

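The genes described here make, carry and destroy retinoic acid. They are Rdh10, Aldh1a1, Aldh1a2, Aldh1a3, Crabp1, Crabp2, Cyp26a1, Cyp26b1 and Cyp26c1, a list of 9 symbols. All 9 were found by symbol among the 54532 Ensembl genes of the count table, and all 9 had enough counts to be tested. The RNA came from microdissected cranial neural tubes of mouse embryos at embryonic day 10.5, sequenced as 4 libraries. The labels do not say whether a library holds 1 embryo or pooled embryos, so that p-values measure only the spread between these libraries, which may be technical. The 2 Control libraries (Control 1 and Control 2) came from embryos that lacked the E2f1 Tg(Wnt1-cre)2Sor transgene. The 2 DCKO libraries (DCKO 1 and DCKO 2) came from embryos with Lats1 flox/flox, Lats2 flox/flox and E2f1 Tg(Wnt1-cre)2Sor/+. The labels do not say whether the Control embryos carried floxed alleles. Cre in this transgene is driven by Wnt1 regulatory sequences, which act in the dorsal neural tube and the neural crest that leaves it, so recombination is expected in only some of the dissected cells. Because all the DCKO embryos carried Cre and no Control embryo did, the transgene and the loss of the LATS kinases cannot be told apart.

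Retinoic acid is a small signalling molecule made from vitamin A. RDH10 oxidises retinol to retinal, and the retinal dehydrogenases of the ALDH1A family oxidise retinal to retinoic acid. Inside the cell CRABP1 and CRABP2 bind it, CRABP2 delivering it to the nuclear receptors (RAR, paired with RXR), and the CYP26 cytochromes hydroxylate it for removal. In the embryonic head, local synthesis next to local breakdown sets where the signal acts, and an excess or a lack of it disturbs the hindbrain, the eye and the neural crest. Several genes of the pathway are themselves switched on by retinoic acid, Cyp26a1, Dhrs3 and Rarb being textbook examples.

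Libraries held between 41798361 and 55137810 counts. In CPM, counts scaled to library size and by the trimmed mean of M values (TMM), a floor of 3 counts in a single library lay between 0.0479 and 0.0812, which covers counting error only. Genes in the ribosomal RNA cluster of chromosome 17 took 12.4% to 13.2% of Control counts and 24.7% to 30.3% of DCKO counts. Lats1 had 44.2 and 65.6 CPM in Control, against 30.0 and 29.7 in DCKO, a difference that missed the threshold (adjusted p = 0.0538), while Lats2 had 26.7 and 13.3 CPM in Control, against 21.2 and 35.3 in DCKO, with overlapping groups. Lats2 shares its position with Gm49361, a predicted gene on the same strand. Both counts can include reads from exons outside the floxed part, so they check the genotypes only weakly. Counts of Xist, the RNA that coats the silenced X of females, were 10837 and 7786 in the Control libraries but 8 and 22 in the DCKO libraries, so that embryo sex and genotype cannot be told apart.

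In DCKO neural tubes the genes for the first step of synthesis and for one of the breakdown enzymes were higher, and the gene for one of the binding proteins was lower. Rdh10 rose 2.69-fold and Cyp26a1 14.7-fold, and Crabp2 was 2.29-fold lower. The other 6 members, Aldh1a1, Aldh1a2, Aldh1a3, Crabp1, Cyp26b1 and Cyp26c1, did not pass. A gene was called when its adjusted p, from edgeR's quasi-likelihood test over 19207 genes, was under 0.05. The members called were thus 2 higher and 1 lower, or 33.3% of the 9. Among all tested genes, 17.0% were called, 8.93% higher and 8.11% lower. With library totals in place of TMM, the split over all genes was 1219 higher and 3744 lower instead of 1716 and 1558, and the all-gene median log2 fold change shifted by -0.35. Under that scaling the same 3 members passed and Aldh1a3 was added. The median fitted log2 fold change was 0.08 over the 9 members and 0.03 over all tested genes. In CPM, Control and DCKO libraries did not overlap for 7 of the 9 members (77.8%), against 66.4% of all tested genes. The plot of CPM by library shows each value.

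**Figure D1:**
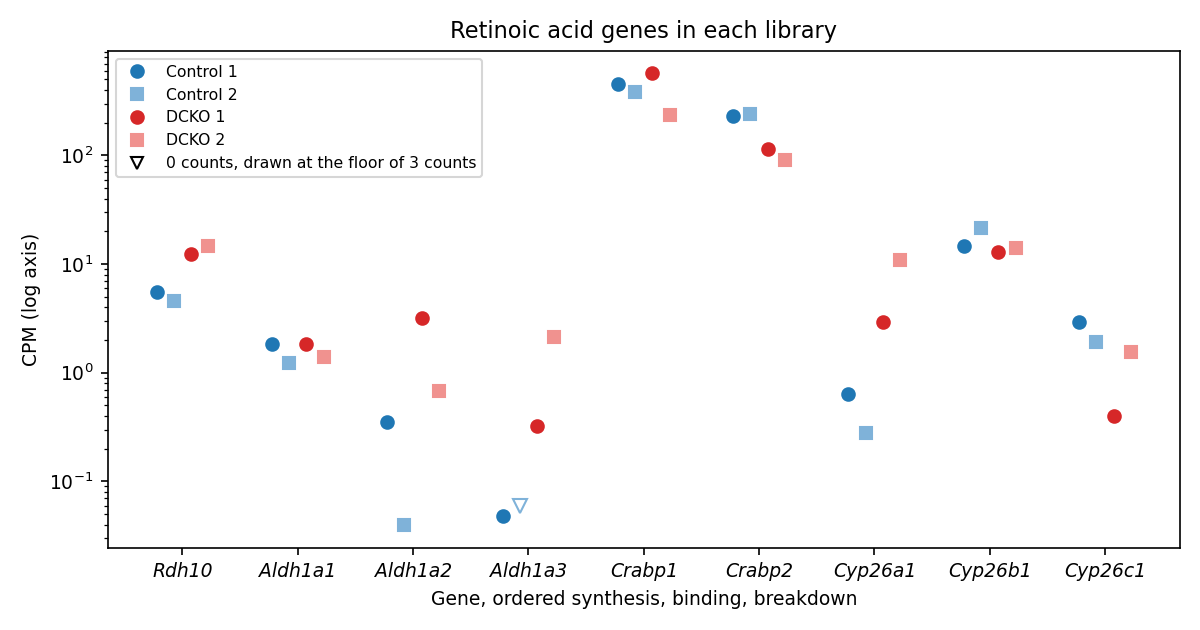
CPM (log axis) of the 9 genes in each of the 4 libraries, with blue marks for Control and red marks for DCKO and an open triangle, at the floor of 3 counts, for the library with 0 counts. Rdh10 and Cyp26a1 lie higher in both DCKO libraries and Crabp2 lower, while the DCKO marks of Aldh1a2, Aldh1a3, Cyp26a1, Cyp26c1 and Crabp1 lie far from each other.

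**Figure D2:**
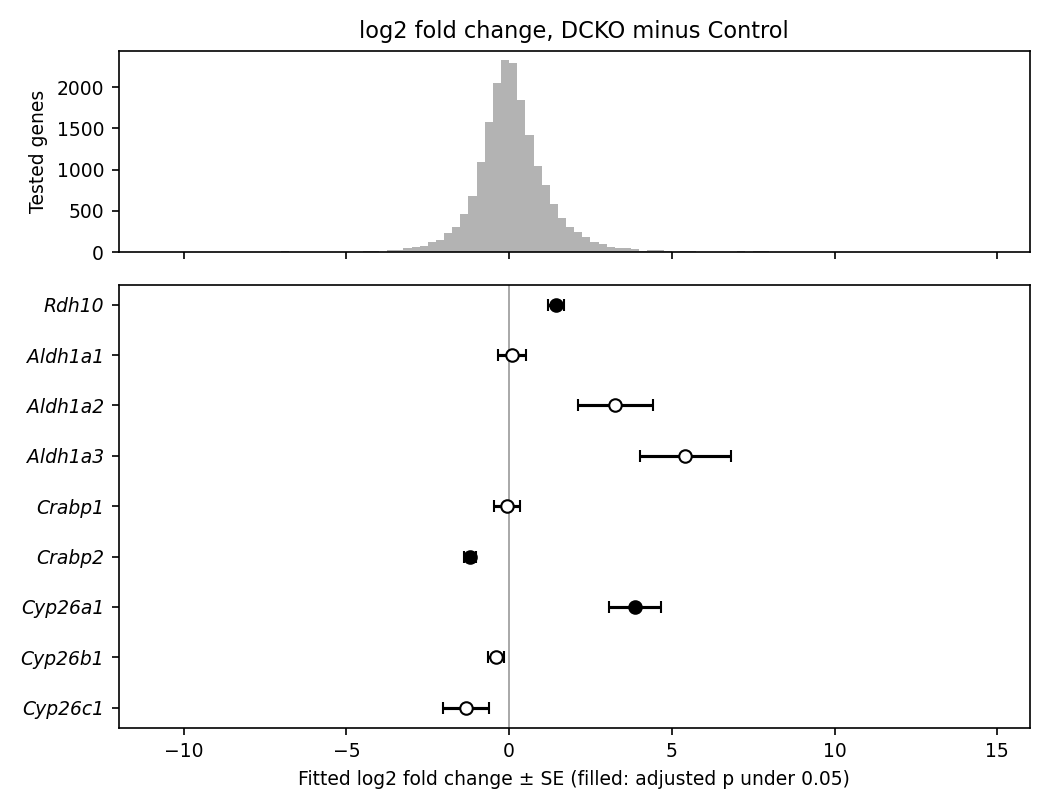
The upper panel counts all 19207 tested genes by fitted log2 fold change (DCKO minus Control), and the lower panel gives the 9 genes with their standard errors, filled where the adjusted p was under 0.05. Aldh1a3 and Aldh1a2 have large fitted changes with wide errors and are not filled, while the smaller changes of Rdh10 and Crabp2 have narrow errors and are.

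Rdh10 (ENSMUSG00000025921, chromosome 1, 16105774 to 16133734, plus strand, GRCm38) encodes the retinol dehydrogenase that carries most embryonic retinal synthesis. It had 5.51 and 4.53 CPM in Control 1 and Control 2, and 12.4 and 14.6 in DCKO 1 and DCKO 2. Both DCKO libraries lay above both Control libraries, and the gap between the groups was wider than the gap within either. Group means were 5.02 ± 0.696 and 13.5 ± 1.57 CPM (SD, n = 2 each), and the log2 fold change was 1.43 (SE 0.25, adjusted p = 0.0217). The authors' deposited table gives Rdh10 a log2 fold change of 1.49 with a false discovery rate of 0.000865. The call was lost without Control 1 (1.57, adjusted p = 0.121) and without Control 2 (1.26, adjusted p = 0.166).

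The retinal dehydrogenases, which make retinoic acid itself, were all scarce. Aldh1a1 (ENSMUSG00000053279, chromosome 19, 20492715 to 20643465, plus strand) overlaps a processed transcript and a processed pseudogene on the opposite strand, and whether strand was used in counting is not given in the sources used here. It had 1.84 and 1.23 CPM in Control, against 1.82 and 1.41 in DCKO. The groups overlapped, and the fitted log2 difference was 0.08 (SE 0.43, adjusted p = 0.917).

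Aldh1a2 (ENSMUSG00000013584, chromosome 9, 71215789 to 71296243, plus strand), the main source of retinoic acid in trunk mesoderm and later in the meninges, overlaps a processed pseudogene on the opposite strand. It had 22 and 2 counts in Control, against 129 and 25 in DCKO, or 0.351, 0.0395, 3.22 and 0.677 CPM. DCKO 1 stood above the rest and DCKO 2 was nearer to Control 1 than to DCKO 1. The ratio of summed counts, scaled to depth, was 9.44 (95% exact binomial interval 6.11 to 15.2, for counting error only). The fitted log2 fold change of 3.27 (SE 1.15) did not pass (adjusted p = 0.105), since the spread within groups was large. It passed without DCKO 2 (3.98, adjusted p = 0.0270) and was 1.74 without DCKO 1 (adjusted p = 0.308).

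Aldh1a3 (ENSMUSG00000015134, chromosome 7, 66390890 to 66427517, minus strand), the dehydrogenase of the ventral retina, the olfactory region and facial ectoderm, showed the reverse order of the DCKO libraries. It had 3 and 0 counts in Control, against 13 and 78 in DCKO, or 0.0479, 0, 0.325 and 2.11 CPM. Control was at or under the floor of 3 counts, and DCKO 2 held most of the DCKO counts. The depth-scaled ratio of summed counts was 44.6 (interval 14.8 to 220). The fitted log2 fold change of 5.42 (SE 1.40), whose size depends on the prior count of the fit, had an adjusted p of 0.0533. It passed without DCKO 1 (6.21, adjusted p = 0.00767) and not without DCKO 2 (3.54, adjusted p = 0.145). Neither Aldh1a2 nor Aldh1a3 is in the authors' deposited table, and neither is Aldh1a1 or Cyp26c1.

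Levels of different genes were compared in the deposited TPM, which is scaled by transcript length. Summed over the 3 Aldh1a genes, TPM was 1.95 and 0.929 in Control, against 3.45 and 3.02 in DCKO. Aldh1a1 made up 84.4% and 97.1% of that sum in Control, and 38.1% and 35.0% in DCKO. In DCKO 1 the largest share was that of Aldh1a2, 54.1%, and in DCKO 2 that of Aldh1a3, 49.6%. Both DCKO libraries thus held more dehydrogenase RNA other than Aldh1a1, with the larger part from a different gene in each. The gene with the smaller part was also above Control. Aldh1a2 had 0.463 TPM in DCKO 2, against 0.288 and 0.0267 in Control, and Aldh1a3 had 0.269 in DCKO 1, against 0.0174 and 0.

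The binding proteins were by far the most abundant members. Crabp1 (ENSMUSG00000032291, chromosome 9, 54764748 to 54773110, plus strand), a marker of neurons and migrating neural crest in the early head, had 457 and 385 CPM in Control, against 569 and 235 in DCKO. The DCKO libraries lay on either side of the Control pair, and the log2 fold change was -0.07 (SE 0.41, adjusted p = 0.925). The sign of this value depended on single libraries. Without DCKO 2 it was 0.43 (adjusted p = 0.155), without Control 1 it was 0.06 (adjusted p = 0.966), and without DCKO 1 it was -0.85 and passed (adjusted p = 0.0340).

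Crabp2 (ENSMUSG00000004885, chromosome 3, 87948666 to 87953376, plus strand), which hands retinoic acid to its nuclear receptors, had 229 and 241 CPM in Control, against 114 and 91.0 in DCKO. Both groups were tight and did not overlap. The means were 235 ± 8.68 and 103 ± 16.5 CPM (SD, n = 2 each), a level 2.29-fold lower in DCKO, and the fitted log2 difference was -1.19 (SE 0.18, adjusted p = 0.0171). The authors' deposited table gives -1.14 with a false discovery rate of 0.000161 for Crabp2. Without Control 1 it had -1.24 (adjusted p = 0.0876) and without Control 2 it had -1.19 (adjusted p = 0.101). Crabp2 contributed 30.1% and 35.0% of the summed Crabp TPM in Control, against 14.7% and 25.0% in DCKO, so that Crabp1 was the larger part in every library.

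Of the 3 breakdown enzymes, 1 rose and the others did not pass. Cyp26a1 (ENSMUSG00000024987, chromosome 19, 37697798 to 37701536, plus strand) encodes the hydroxylase that retinoic acid itself induces. It had 40 and 14 counts in Control, against 117 and 398 in DCKO, or 0.639, 0.277, 2.92 and 10.8 CPM. Both DCKO libraries were higher than both Control libraries, with DCKO 2 well above DCKO 1. The log2 fold change was 3.88 (SE 0.80, adjusted p = 0.0317), and the depth-scaled ratio of summed counts was 14.0 (interval 10.6 to 18.9). It still passed without DCKO 2 (2.65, adjusted p = 0.0234), but not without Control 1 (4.61, adjusted p = 0.0949) or Control 2 (3.38, adjusted p = 0.143). For Cyp26a1 the authors' deposited table gives 3.95 with a false discovery rate of 5.82e-07.

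Cyp26b1 (ENSMUSG00000063415, chromosome 6, 84571414 to 84593908, minus strand), the hydroxylase of the hindbrain and craniofacial tissue, had 14.6 and 21.3 CPM in Control, against 13.0 and 14.1 in DCKO. The highest DCKO value was just under the lowest Control value, and the log2 fold change of -0.40 (SE 0.25) did not pass (adjusted p = 0.298). It was -0.14 without Control 2 (adjusted p = 0.856). The authors' deposited table gives -0.35 with a false discovery rate of 0.472 for Cyp26b1.

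Cyp26c1 (ENSMUSG00000062432, chromosome 19, 37685581 to 37693398, plus strand), a hydroxylase expressed in the anterior head and parts of the hindbrain, lies upstream of Cyp26a1 in the same orientation, with 4399 bases and 0 annotated genes between them. It had 185 and 96 counts in Control, against 16 and 57 in DCKO, or 2.95, 1.90, 0.400 and 1.54 CPM. Its DCKO values were lower than both Control values, but DCKO 2 was close to Control 2. The log2 fold change was -1.32 (SE 0.70, adjusted p = 0.231), and it passed only when DCKO 2 was left out (-2.60, adjusted p = 0.0214). Neighbouring Cyp26a1 and Cyp26c1 therefore had fitted values of opposite sign, and only that of Cyp26a1 passed. The difference between the 2 values was not tested.

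In TPM the Cyp26 genes summed to 9.97 and 9.30 in Control and to 6.28 and 15.7 in DCKO, so that the DCKO libraries lay below and above the Control pair. Cyp26b1 was the largest part in Control, 61.7% and 79.7%, and Cyp26a1 the smallest, 6.74% and 2.41%. In DCKO the share of Cyp26a1 was 34.4% and 60.1%, and that of Cyp26c1 was 4.78% and 8.74%, down from 31.6% and 17.9%. The stacked bars of TPM show these proportions.

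**Figure D3:**
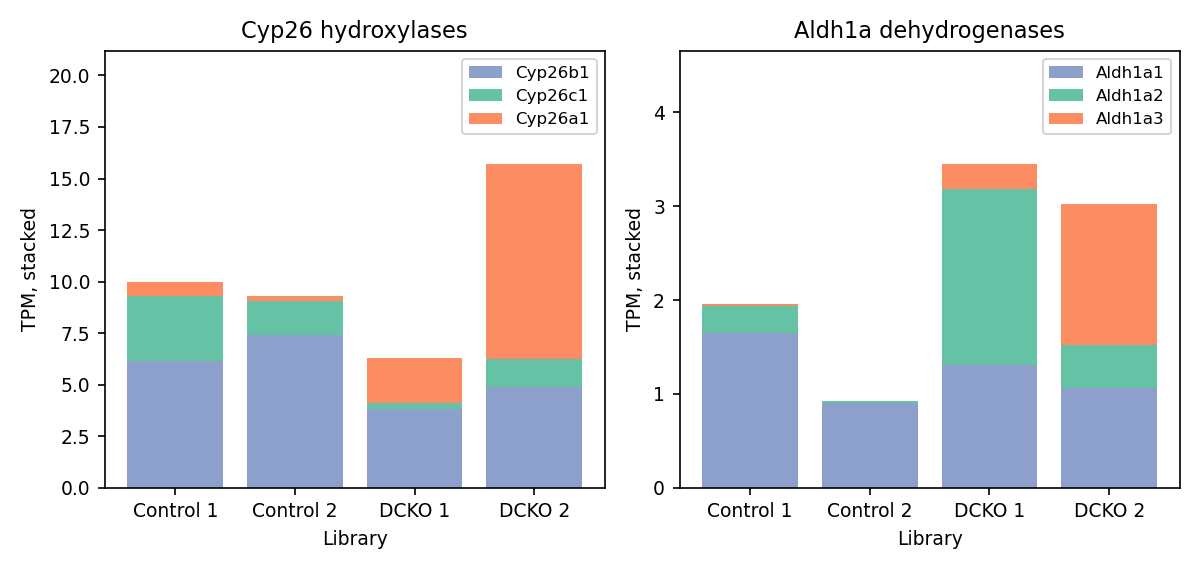
Deposited TPM of the Cyp26 genes (left) and the Aldh1a genes (right), stacked per library. Cyp26a1 is a thin segment in both Control bars and the largest segment in DCKO 2, and the segments above Aldh1a1 in the DCKO bars are mainly Aldh1a2 in DCKO 1 and Aldh1a3 in DCKO 2.

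Because Cyp26a1 is a textbook direct target of retinoic acid receptors, the start regions of the Cyp26 genes are shown. RefSeq windows of the 250 bases before each start site (GRCm38.p6) were present for 6 of the 9 members, and those for Aldh1a3, Crabp2 and Rdh10 were not used here. They were searched on both strands for a DR5, 2 receptor half-sites (AGGTCA, or the form AGTTCA, or the form GGGTCA, or the form GGTTCA, in any combination) in the same direction with 5 bases between. The same half-sites with 2 or 1 bases between (DR2, DR1), and the TEAD motif CATTCC, were searched too. Sequences are printed 5′ to 3′ along the gene, up to the first annotated exon base, with half-sites in capitals. The regions are chr19:37697558-37697797 (plus strand) for Cyp26a1, chr19:37685430-37685580 (plus strand) for Cyp26c1 and chr6:84593909-84594060 (minus strand) for Cyp26b1.
Cyp26a1: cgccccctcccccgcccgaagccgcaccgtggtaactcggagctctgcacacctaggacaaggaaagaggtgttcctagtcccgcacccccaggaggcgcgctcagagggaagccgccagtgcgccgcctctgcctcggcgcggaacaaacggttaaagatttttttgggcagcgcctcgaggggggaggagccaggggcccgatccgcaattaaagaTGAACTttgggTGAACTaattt
Cyp26c1: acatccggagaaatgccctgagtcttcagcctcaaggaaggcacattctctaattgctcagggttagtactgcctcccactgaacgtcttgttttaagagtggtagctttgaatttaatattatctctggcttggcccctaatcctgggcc
Cyp26b1: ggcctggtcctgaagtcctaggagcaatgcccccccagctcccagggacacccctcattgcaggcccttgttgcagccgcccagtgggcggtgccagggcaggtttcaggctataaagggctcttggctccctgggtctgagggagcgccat

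The Cyp26a1 window held 1 DR5, on the strand opposite to the gene, at chr19:37697776-37697792, between 16 and 32 bases before the RefSeq start site. Rarb, the receptor gene described below, held 1 DR5 on its own strand at chr14:16575513-16575529, between 37 and 53 bases before its start site. Read along the strand that carries it, with half-sites in capitals and the spacer in lower case, each site is as follows.
Cyp26a1 DR5: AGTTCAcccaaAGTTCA
Rarb DR5: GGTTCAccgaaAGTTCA

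A DR5 of this form was rare, being found in 29 of 32851 windows (0.0883%). DR2 and DR1 forms were found in 0.174% and 0.164% of windows and in none of those of the members. CATTCC, which 12.6% of windows held, was found in the window of Crabp1, and in that of Rarb between 3 and 8 bases before the start site. For Aldh1a1 it was in the window at chr19:20492333-20492582, whose start site was not matched to a GENCODE transcript of the gene. The other Aldh1a1 window, chr19:20601718-20601967, was matched and held none. No occurrence overlapped another in these windows. These are matches of letters in short windows, and binding was not measured.

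Ordered by mean TPM, the Control level was highest for Crabp1 (902 ± 234) and Crabp2 (428 ± 44.4), then Cyp26b1 (6.78 ± 0.896), Rdh10 (2.49 ± 0.627), Cyp26c1 (2.41 ± 1.05) and Aldh1a1 (1.28 ± 0.528). The lowest were Cyp26a1 (0.448 ± 0.317), Aldh1a2 (0.157 ± 0.185) and Aldh1a3 (0.00868 ± 0.0123; SD, n = 2 throughout). From Rdh10 downwards, each gene overlapped the next in order within 1 SD of each mean. In DCKO the order was Crabp1 (695 ± 338), Crabp2 (157 ± 6.74), Cyp26a1 (5.80 ± 5.15), Rdh10 (5.52 ± 1.29), Cyp26b1 (4.35 ± 0.756), Aldh1a1 (1.19 ± 0.180), Aldh1a2 (1.16 ± 0.993), Aldh1a3 (0.884 ± 0.871) and Cyp26c1 (0.836 ± 0.758). There Cyp26a1, Rdh10 and Cyp26b1 overlapped within their spread, as did the 4 lowest. The Crabp genes stood more than an order of magnitude above the enzymes in both groups.

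Over the 4 libraries, the tested genes nearest to Aldh1a3, the member with the largest fitted rise, were Cyp26a1 (Euclidean distance 0.55 in centred log2 CPM), Atf3 (0.91) and Vgll3 (0.94), among genes whose log2 CPM averaged 1 or more. Nearest to Cyp26c1, the member with the largest fitted fall, were Zfp994 (0.17), Zfp866 (0.29) and Bmf (0.34). With 4 points in 2 groups, such closeness reflects the group difference and the order of the 2 libraries within a group. The log2 CPM values also include a prior count, which matters for Aldh1a3, with 3 and 0 counts in Control. The fitted log2 fold changes were further apart, 5.42 for Aldh1a3 and 3.88 for Cyp26a1.

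Of 55 other genes of the pathway, 34 were tested, with 7 called higher and 4 lower. Over all tested genes, 8.93% were called higher and 8.11% lower, and the median log2 fold change was 0.03. Of the 6 retinoic acid receptors, all tested, 3 rose, 1 fell and 2 did not pass, with a median log2 fold change of 0.86. Rarb, the receptor that retinoic acid itself induces, had 5.16 and 5.93 CPM in Control, against 44.8 and 47.0 in DCKO. The libraries of each group lay close together and the groups far apart, and the fitted log2 difference was 3.05 (SE 0.19, adjusted p = 0.00571), and the call held without any single library.

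Rarg, the receptor of mesenchyme and epidermis, went from 9.42 and 8.71 CPM to 41.7 and 53.6 (2.39, SE 0.20, adjusted p = 0.00713). Without Control 2 it had an adjusted p of 0.0504. Rara, the broadly expressed receptor, went from 20.7 and 21.4 CPM to 35.9 and 48.3 (1.00, SE 0.20, adjusted p = 0.0299). Rxra, the main RXR partner of the embryo, moved the other way, from 81.7 and 81.3 CPM to 42.2 and 41.9 (-0.95, SE 0.15, adjusted p = 0.0180). Groups did not overlap for any of these 4 receptors. Without Control 1 and Control 2 in turn, Rara had adjusted p-values of 0.193 and 0.183, and Rxra 0.125 and 0.121. Rxrb and Rxrg had log2 fold changes of -0.56 (adjusted p = 0.0997) and 0.72 (adjusted p = 0.235).

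Among the enzymes that interconvert retinol and retinal, Dhrs3, which reduces retinal back to retinol and so limits synthesis, had 1.49 and 1.54 CPM in Control, against 11.4 and 6.41 in DCKO. The rise was 2.56 on the log2 scale (SE 0.39, adjusted p = 0.0173). Rdh11, another retinal reductase, had 32.7 and 31.1 CPM in Control, against 48.3 and 49.9 in DCKO (0.62, SE 0.15, adjusted p = 0.0465). Both genes were higher in both DCKO libraries, and of the 8 tested enzymes of this list these 2 rose and 0 fell, with a median of 0.29. Without Control 1 and Control 2, Dhrs3 had adjusted p-values of at most 0.102 and Rdh11 0.271 and 0.313, none of them under the threshold, and without DCKO 2 Rdh11 had 0.0518. Rdh9, Rdh16, Dhrs9, Adh1 and Adh4 had 0 counts in every library.

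In the list of retinol transport and storage, 1 of 4 tested genes rose and 0 fell, with a median of 0.49. Stra6, the membrane receptor that takes up retinol, had 13.5 and 8.87 CPM in Control, against 24.1 and 28.1 in DCKO (1.22, SE 0.26, adjusted p = 0.0358). Its adjusted p was 0.0905 without Control 1 and 0.204 without Control 2. Among the 6 receptor coregulators 0 passed in edgeR, and 0 had an unadjusted p under the threshold. Their median was -0.05. The alternative route through Fabp5 and Ppard had 0 of 2 called, with Ppard at 0.60 (adjusted p = 0.117, and an unadjusted p of 0.0377) and Fabp5 at -0.05 (adjusted p = 0.919).

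**Figure D4:**
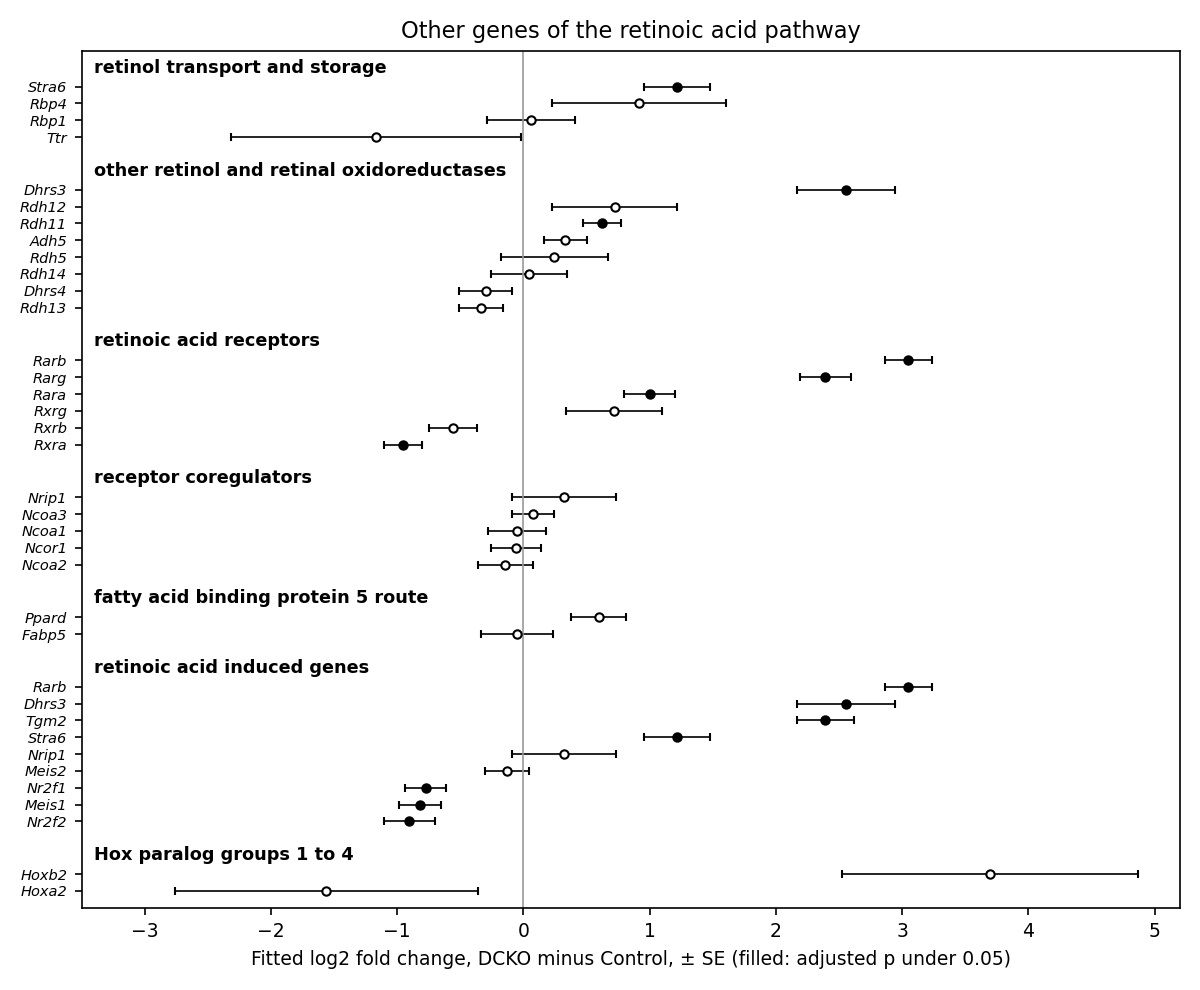
Fitted log2 fold change (DCKO minus Control) with its standard error for tested genes of 7 pathway lists (those not reported here left out), filled where the adjusted p was under 0.05. Rarb, Rarg, Rara, Dhrs3, Rdh11, Stra6 and Tgm2 lie to the right of 0 and are filled, and Rxra, Nr2f1, Meis1 and Nr2f2 lie to the left and are filled.

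Genes known to be induced by retinoic acid did not move as a block. Of 14 listed, 10 were tested, 4 rose and 3 fell, with a median of 0.77. Rarb, Dhrs3 and Stra6, counted above, are 3 of those that rose. The fourth, Tgm2, a transglutaminase, went from 8.94 and 6.62 CPM to 38.6 and 43.2 (2.39, SE 0.22, adjusted p = 0.00788). Without Control 2 its adjusted p was 0.0504.

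Those that fell were the transcription factors Nr2f2 (-0.90, SE 0.21, adjusted p = 0.0401), Meis1 (-0.82, SE 0.17, adjusted p = 0.0320) and Nr2f1 (-0.78, SE 0.17, adjusted p = 0.0344). The same libraries had lower neural progenitor markers and higher cranial mesenchyme markers. A link of either to these 3 factors was not tested. Of the 3, 0 passed without Control 1 and 0 without Control 2, with adjusted p-values between 0.142 and 0.253. Hox genes of paralog groups 1 to 4, the classic retinoic acid targets of the hindbrain, had few counts. Only 3 of 12 could be tested and 0 passed in edgeR, with 2 at an unadjusted p under the threshold. Hoxb2 had 4 and 8 counts in Control, against 12 and 96 in DCKO (adjusted p = 0.0845), and Hoxa2 had 122 and 151 against 2 and 60 (adjusted p = 0.397).

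The libraries also differed in markers of the cells that could hold these RNAs, and in bulk RNA fewer cells of a type cannot be told apart from less RNA per cell. Neural progenitor markers, which define the labelled tissue, were abundant in Control, with summed levels of 2285 and 2568 CPM, and 840 and 696 in DCKO, and 7 of 8 were lower. Of 6 neuronal markers 2 were lower, with sums of 767 and 1006 against 492 and 217. Of 8 surface ectoderm markers 7 were higher, with sums of 15.4 and 18.1 CPM in Control, against 248 and 250 in DCKO. Of 8 cranial mesenchyme markers 6 were higher (130 and 121 against 423 and 379), of 6 pericyte and mural markers 4 (45.8 and 41.8 against 383 and 479), and of 5 endothelial markers 4 (120 and 113 against 599 and 331). A large part of the DCKO mural sums was Acta2, with 167 CPM in DCKO 1 and 334 in DCKO 2, against 6.90 and 4.74 in Control. Each of the other mural markers was higher in DCKO 1 than in DCKO 2.

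Other lists went with single libraries. Of 4 tested neural crest and glia markers 1 was higher, with sums of 12.2 and 13.3 CPM in Control, 14.5 in DCKO 1 and 86.5 in DCKO 2, the library in which Aldh1a3 and Cyp26a1 were highest and Crabp1 lowest. The marker called was Erbb3, a receptor of Schwann cell precursors, with 0.575 and 0.870 CPM in Control, 8.80 in DCKO 1 and 33.8 in DCKO 2. The 5 macrophage markers, 0 called in edgeR and 0 with an unadjusted p under the threshold, summed to 18.2 and 20.2 CPM in Control, 49.1 in DCKO 1 and 14.9 in DCKO 2. Like the macrophage sum and the endothelial markers, Aldh1a2 was highest in DCKO 1. Most of that macrophage sum was Csf1r, with 32.5 CPM in DCKO 1. Cx3cr1 went the other way, with 6.34 and 6.96 CPM in Control, against 4.55 and 4.33 in DCKO, while the remaining macrophage markers were highest in DCKO 1. Paraxial mesoderm markers, which mark a trunk tissue rich in Aldh1a2, had 1 of 4 higher and 1 lower, with sums of 16.6 and 23.5 against 15.1 and 21.2 CPM. These similar sums hide opposite changes. Uncx had 9.37 and 16.1 CPM in Control, against 2.32 and 0.785 in DCKO, and Tbx18 had 6.29 and 6.32, against 11.4 and 19.1. Optic vesicle markers summed to 11.8 and 48.1 CPM in Control, against 4.57 and 3.33 in DCKO, with 2 of 5 tested lower and Tbx5 at 0 counts throughout. Most of that sum was Lhx2, with 9.09 and 44.3 CPM in Control, against 3.25 and 1.14 in DCKO. Single markers differed from the sum in DCKO 2, the library with most Aldh1a3, a gene the eye also expresses. Six6 had 17 counts there and 0 in the other libraries, and Rax had 15 there, 73 in Control 2 and 0 in Control 1 and DCKO 1.

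Of 6 placode markers 1 was higher and 1 lower (sums of 30.4 and 32.9 against 50.2 and 51.1 CPM). Of 6 tested ventral midbrain markers, among whose cells Aldh1a1 marks dopaminergic neurons, 0 passed in edgeR, with Th at an unadjusted p of 0.0227. Their sums were 104 and 81.6 against 79.6 and 108 CPM, and Pitx3, which defines those neurons, had 0 counts. All 6 erythroid markers were lower (2530 and 3731 against 882 and 650 CPM). The part of these cell types in the values of the retinoic acid genes was not tested.

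Leaving out each library in turn showed which fitted values rested on 1 library. Rdh10 ranged from 1.26 to 1.57, Crabp2 from -1.37 to -1.04 and Cyp26a1 from 2.65 to 4.61. Aldh1a2 ranged from 1.74 to 5.52 and Aldh1a3 from 3.54 to 8.69, the largest values coming without the Control library that held more of their few counts. Cyp26b1 and Cyp26c1 stayed below 0, between -0.66 and -0.14 and between -2.60 and -0.66. Aldh1a1 and Crabp1 took both signs. When a Control library was left out, the spread came from the DCKO pair alone and 0 members passed in edgeR, while 5 and 4 had an unadjusted p under the threshold. When a DCKO library was left out, 5 members passed each time. Cyp26a1, Rdh10 and Crabp2 were among them in both cases, joined by Aldh1a3 and Crabp1 without DCKO 1, and by Aldh1a2 and Cyp26c1 without DCKO 2.

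**Figure D5:**
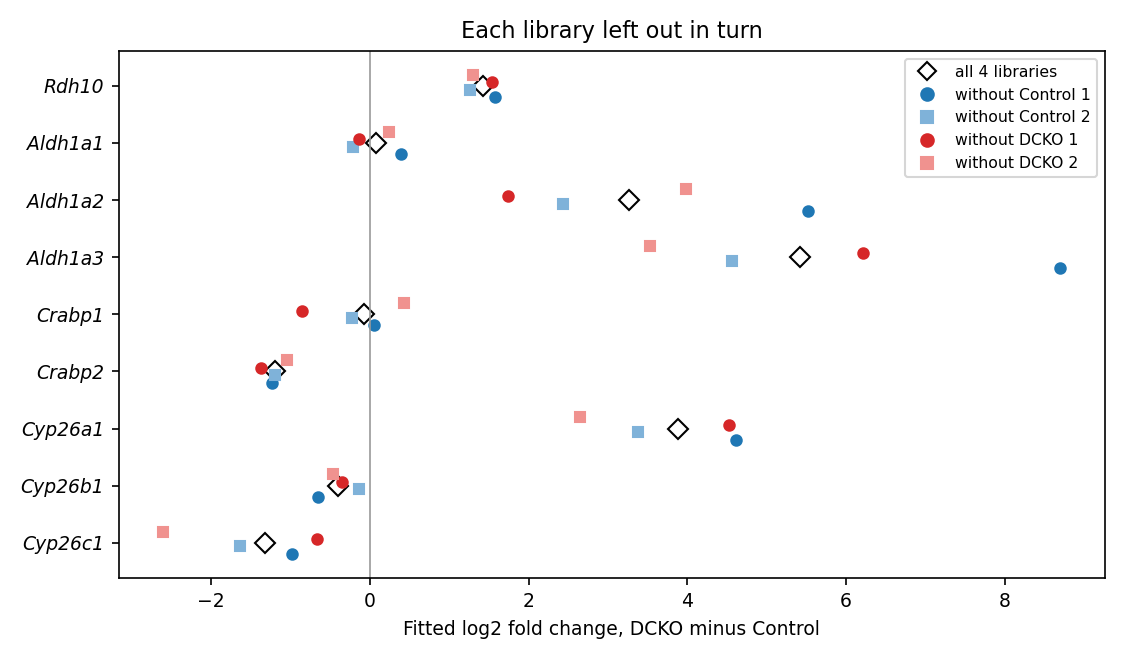
Fitted log2 fold change (DCKO minus Control) of the 9 genes with all 4 libraries (open diamonds) and with each library left out (filled marks). The marks of Rdh10 and Crabp2 stay close to the diamond, those of Aldh1a2, Aldh1a3, Cyp26a1 and Cyp26c1 spread widely, and those of Aldh1a1 and Crabp1 lie on both sides of 0.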

How the data were processed

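The authors deposited whole-number counts per Ensembl gene and TPM per gene, 1 column per library, and a table of log2 fold changes with p-values and false discovery rates. Per the submitters' processing notes, TopHat2 2.1.1, StringTie, edgeR 3.16.5, limma 3.30.13 and R 3.3.2 were used, with mm10 and GRCm38, in roles that are not given in the sources used here. Positive values in the deposited log2 fold change table are higher in DCKO, checked against the counts. The deposited columns were matched to the libraries by group and number.

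Of 54532 gene IDs, 54409 matched a GENCODE M21 symbol. Genes were filtered with filterByExpr (minimum count 10, minimum total 15), scaled by TMM and fitted with edgeR 4.0.16 in R 4.3.3, with group as the only term, on all 19207 genes. Adjusted p-values are Benjamini-Hochberg over all of them, threshold 0.05, two-sided. The SE is the log2 fold change divided by the root of F. The genes and lists were chosen with earlier results of these data known. Named genes are the 9, the called genes of each pathway list (up to 4, or else the smallest p), up to 2 markers per cell type by p, Lats1, Lats2, and the nearest patterns of the largest rise and fall. Xist, Rxrb, Rxrg, Fabp5, Six6, Rax and Hoxa2 were added after their values were seen, as were marker genes at 0. The fit was run on simulated counts with the same spread between libraries set for every gene. That run did not test the fit at the spread of genes such as Cyp26a1 and Aldh1a3. Alternatives used DESeq2 1.42.0, limma 3.58.1 on log2(TPM + 1) and log2(TPM + 0.1), other scalings and filters, a replicate block and left-out libraries. Some genes of the lists are counted but not reported here by name. Protein sequences planned for comparison were not used here.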

Additional observations from a re-analysis of the deposited data

How the results depend on the processing

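Depth limits Aldh1a2, Aldh1a3 and Hoxb2, with few counts in Control. Under DESeq2 size factors and upper quartiles the calls of the 9 genes were the same. With the replicate number as a replicate block, 1002 genes were higher and 776 lower, 1 member was higher (Aldh1a2, while Cyp26a1 had an adjusted p of 0.0606 and Rdh10 0.0509), and 4 pathway genes were higher and 1 lower. The labels do not say whether a number marks a shared litter, so the main fit had no replicate block. Deviations of same-numbered libraries from their group means correlated at -0.037. With 2 libraries a group, this value cannot show whether same-numbered libraries shared a litter. With DESeq2, 2672 genes were lower and 4 members higher, Aldh1a2 and Aldh1a3 being added. With library totals, 3744 genes were lower and 4 pathway genes higher. In limma on TPM with a mean of at least 1, 7 members were tested, 1007 genes were higher with a pseudocount of 1 and 958 with 0.1, 1 member was higher (Cyp26a1) and 1 lower (Crabp2) in each. TPM moved the median of all genes by -0.21 and -0.23. On unfiltered log2(TPM + 1), 0 genes and 0 members passed in either direction, with 6446 genes at an unadjusted p under the threshold, 2 members higher and 1 lower among them. Without single libraries, genes higher ranged from 155 to 2619 and lower from 72 to 2565, members from 0 to 3 and 0 to 2, and pathway genes from 1 to 10 and 0 to 5. The cause of these shifts was not tested.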
